A study of Homo sapiens with 15 samples.

Results

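High- and low-proliferation cultures of Caco-2 cells were compared within treatments. Of the 15 arrays of the series, 5 were placed in the high class (Control 1 and 2, LPS 4 and 5, and LPS+RSV 2) and the other 10 in the low class, so that every array of the series belonged to 1 of the classes. The classes were chosen by the measured level of cell cycle genes. Every difference between them is therefore given as a description, with no test, and the level of cell cycle genes is not a finding.

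Caco-2 is an established line from a human colon carcinoma. At confluence its cells slow their division and acquire microvilli, digestive enzymes and lipoprotein secretion like those of the small intestinal enterocyte. The groups were 5 arrays each of untreated Caco-2 cells (Control), cells exposed to 1 µg/mL lipopolysaccharide of E. coli K12, a ligand of the receptor TLR4, for 48 h (LPS), and cells given 50 µM trans-resveratrol, a plant polyphenol in ethanol, 1 h before that LPS exposure (LPS+RSV). Per the labels, cells were seeded at 30000 per cm2 and used between 15 and 19 days later; the day of each array is not given, and day and class cannot be told apart here. Untreated cells were the only controls, and an ethanol control is not named. Replicates are numbered, but separate cultures are not stated, so the p-values below reflect only how far these samples differ among themselves, and that may be technical variation.

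In the intestine, dividing progenitors lie in the crypts, where Wnt signalling keeps stem cells that carry LGR5. Their progeny leave the cycle as they move onto the villus and build a brush border, which carries hydrolases and transporters, and package dietary fat into chylomicrons with MTTP and the apolipoproteins APOB and APOA4. Caco-2 cultures pass through a related sequence on plastic, without crypts or villi.

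Values were log2 expression from RMA, in which 1 unit is a doubling of signal, and 11804 named genes passed a filter on dim probe sets. Array medians lay between 5.49 and 5.54, and the correlation of any pair across genes was from 0.922 to 0.994. LPS+RSV 1 was the least like the rest (mean correlation 0.946). Arrays of like class lay close in pairs: within groups the closest were Control 1 and 2 (0.993) and LPS 4 and 5 (0.992), and the third was a low pair, Control 3 and 4 (0.992). Whether such pairs shared a culture is not given, and if they did the 5 high arrays stand for fewer cultures. Of 14 enterocyte markers, 8 were named in the table and all 8 passed the filter, with means between 6.07 (KRT20) and 12.65 (APOB). The mean of SI, sucrase-isomaltase, was 12.04 and that of VIL1, the brush border actin bundler villin, was 10.95. FABP1 and HNF4A were not analysed here.

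The cell cycle score, the mean log2 deviation of 184 replication and mitosis genes from their means, was 0.87 in LPS 5, 0.74 in LPS 4, 0.45 in Control 1, 0.41 in Control 2 and 0.36 in LPS+RSV 2. Among low arrays it was 0.14 in LPS 1, 0.11 in LPS 2, -0.05 in LPS 3, -0.15 in LPS+RSV 3 and -0.14 in Control 3. It was -0.29 in Control 4, -0.35 in LPS+RSV 4, -0.60 in LPS+RSV 1, -0.72 in LPS+RSV 5 and -0.77 in Control 5. LPS+RSV 2 lay just inside the high class and LPS 1 just outside it. The low class was broad: its lowest array lay farther from LPS 1 than LPS 1 lay from any high array.

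**Figure D1:**
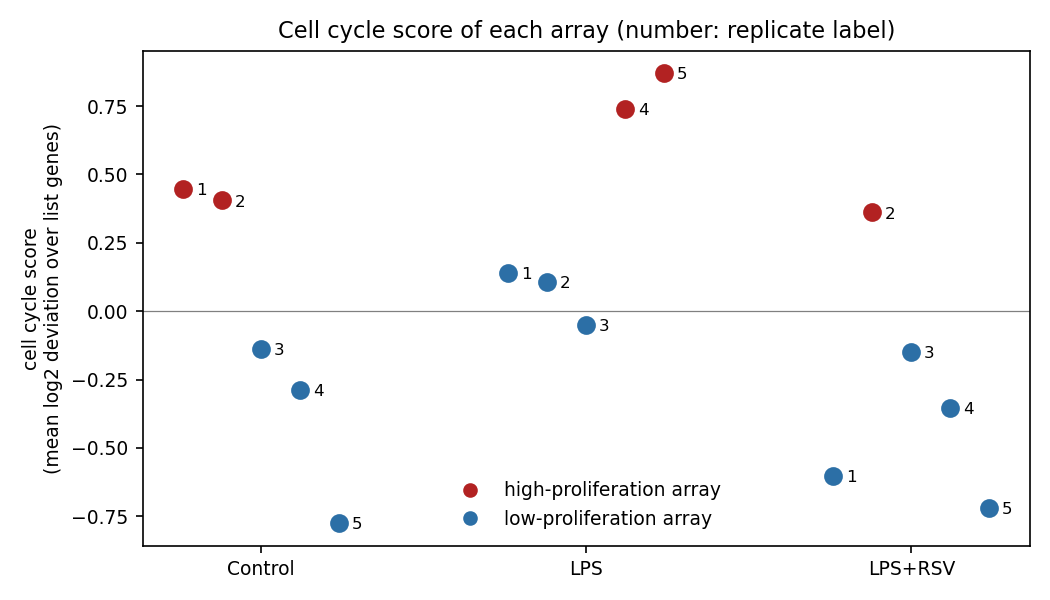
Cell cycle score of each array (vertical axis, mean log2 deviation over 184 genes) by treatment group (horizontal axis), 1 point per array with its replicate label, red for the high and blue for the low class. High arrays lay between 0.36 and 0.87 and low arrays between -0.77 and 0.14.

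The high minus low difference was the class term of a linear model with treatment group as the other term, fitted to all 15 arrays. A gene was counted where, in each of the 3 treatments, every high array lay on the same side of every low array, and the difference was at least 0.5. By this rule 335 genes were higher in the high arrays (2.84% of 11804) and 134 were lower (1.14%). Of the 335, 147 belonged to the cell cycle lists and 188 did not; of the 134 lower genes, 0 did. For 247 of the higher and 112 of the lower genes the classes did not overlap over all 15 arrays, whatever the treatment. Over all 11804 genes, at any size, this held for 581 higher and 359 lower genes. The rule already asks for no overlap within each treatment, so much of this follows from it. At the size limit stood PUS7 (0.4992) outside and ZSCAN12P1 (0.5003) inside for higher genes, and EFNA3 (-0.4998) outside and PPARG (-0.501) inside for lower genes. With no size limit, 1074 genes (9.10%) lay higher and 635 (5.38%) lower in every treatment. Without LPS+RSV 1 the counts at the limit were 315 and 132, and without LPS 1 and 2 they were 392 and 173.

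The promoters of 4 genes are shown as examples, chosen after values and matches were seen: SI and the water channel AQP10 were counted lower in the high arrays, and the mitotic topoisomerase TOP2A and the histone methyltransferase EZH2 were counted higher. Each is the 250 bases before the RefSeq start on GRCh38.p14, on the gene's own strand. For the lower genes, capitals mark matches to motifs of intestinal factors. The letters searched were TTTATG for the caudal factors (CDX), AGATAA for the zinc finger factors of the GATA family, GTTAAT for the homeobox factor HNF1, and CAAAGTCCA for the nuclear receptor HNF4. For the higher genes, the letters were CCAAT for the box bound by NF-Y, TTTGAA for the cell cycle homology region (CHR), and TTTGGCGC or TTTCCCGC for the E2F factors. Both strands were searched, so a match may be printed as its reverse complement. No matches shown here overlap.

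SI, chr3:165078497-165078746, minus strand: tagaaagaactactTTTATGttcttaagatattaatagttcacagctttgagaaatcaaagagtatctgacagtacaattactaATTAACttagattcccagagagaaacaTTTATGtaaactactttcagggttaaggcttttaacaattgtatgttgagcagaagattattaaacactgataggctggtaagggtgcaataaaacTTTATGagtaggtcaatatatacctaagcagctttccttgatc
AQP10, chr1:154320843-154321092, plus strand: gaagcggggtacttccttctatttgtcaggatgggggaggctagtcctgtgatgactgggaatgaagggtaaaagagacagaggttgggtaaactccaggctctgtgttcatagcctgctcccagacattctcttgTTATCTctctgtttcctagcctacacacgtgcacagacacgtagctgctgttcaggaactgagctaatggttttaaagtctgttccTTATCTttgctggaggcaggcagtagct
TOP2A, chr17:40417897-40418146, minus strand: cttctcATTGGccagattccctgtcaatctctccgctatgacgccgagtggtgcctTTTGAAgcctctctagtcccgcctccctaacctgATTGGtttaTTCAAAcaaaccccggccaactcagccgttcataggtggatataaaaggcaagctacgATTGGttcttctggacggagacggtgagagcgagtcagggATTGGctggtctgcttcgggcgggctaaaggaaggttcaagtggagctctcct
EZH2, chr7:148884292-148884541, minus strand: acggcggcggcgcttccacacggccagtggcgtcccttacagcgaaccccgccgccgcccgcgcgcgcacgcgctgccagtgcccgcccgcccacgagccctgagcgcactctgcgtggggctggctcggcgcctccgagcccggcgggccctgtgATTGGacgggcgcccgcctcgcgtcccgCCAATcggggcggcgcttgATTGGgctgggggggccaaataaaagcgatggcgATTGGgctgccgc

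SI held 4 matches, of which 3 were to CDX and 1 to HNF1, and AQP10 held 2 GATA matches. TOP2A held 6, with 4 CCAAT boxes and 2 CHR matches, and EZH2 held 4 CCAAT boxes. The other RefSeq promoter of EZH2, chr7:148883486-148883735, held 0 matches. RefSeq promoters were found for 126 of the 147 counted cell cycle genes, 155 of the 188 other higher genes, 97 of the 134 lower genes and 8921 of all 11804, and some genes have several. A CCAAT box lay in 64.2% of 173 promoters of the cell cycle genes, 42.7% of 218 of the other higher genes, 31.3% of 147 of the lower genes and 32.7% of 12523 promoters of all tested genes. For CHR the shares were 27.2%, 12.8%, 11.6% and 9.38%, and for E2F they were 12.1%, 4.59%, 0% and 2.63%. HNF1 matches lay in 10.9% of lower gene promoters against 3.94% of all tested, GATA matches in 11.6% against 5.92% and CDX in 9.52% against 5.9%. HNF4 matches lay in 2.72% against 0.319%, and the 2.72% was only 4 of 147 promoters. Over all 35116 promoters of the reference table, tested or not, the shares were 6.23%, 9.17%, 9.64% and 0.325% for these intestinal factors, and 32% for CCAAT, 13.3% for CHR and 1.93% for E2F. The CHR share of the other higher genes and the CDX share of the lower genes were below those of this wider set. TATAAA, the letters of the general TATA box, was also searched and is not marked above. It lay in 13.6% of lower gene promoters, 3.47% of those of the cell cycle genes and 7.34% of those of the other higher genes. Its share was 6.52% for all tested and 10.7% for the wider set. Base composition also differed among the sets. The median count of CG pairs was 21 in promoters of the cell cycle genes and 20 in those of the other higher genes. It was 10 for the lower genes, 19 for all tested and 11 for the wider set. The part of base composition in the motif shares was not tested. A match is a run of letters and not a binding site.

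Lipoprotein assembly held the lowest genes of the contrast. APOA4, an apolipoprotein of chylomicrons, read 8.56 and 8.47 in high Control arrays against 9.55, 11.02 and 10.62 in low ones. In LPS it read 8.29 and 8.02 against 9.85, 10.17 and 9.91, and in LPS+RSV 7.48 against 11.31, 9.72, 11.18 and 11.17. No high array of any treatment reached a low array, and the difference was -2.23 ± 0.35 (log2, SE of the fit over 15 arrays), or 4.68-fold. APOA4 also varied within the low class, where Control 3 and LPS+RSV 3 had the lowest levels.

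MTTP, which loads lipid onto APOB, read 7.57 and 7.45 in high Control arrays against 8.61, 9.59 and 9.63 in low ones. In LPS it read 7.81 and 7.63 against 9.66, 9.70 and 8.83, and in LPS+RSV 7.28 against 9.66, 8.70, 9.49 and 9.90. The classes did not overlap, and the difference was -1.83 ± 0.24, or 3.56-fold. Of the 28 tested genes of lipoprotein assembly and lipid absorption, 25 were lower in the high arrays, 6 counted, and the median difference was -0.27, beside -0.01 over all genes. The other counted members were CREB3L3 (-0.64 ± 0.14), a membrane-bound transcription factor of lipid genes, the lipid droplet protein CIDEC (-0.63 ± 0.11), the sterol esterifying enzyme SOAT2 (-0.52), and APOB (-0.51 ± 0.11). MTTP and APOA4 thus lay far beyond their partner APOB in this difference, whose values ranged from 12.15 to 12.58 in high and from 12.59 to 13.13 in low arrays.

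**Figure D2:**
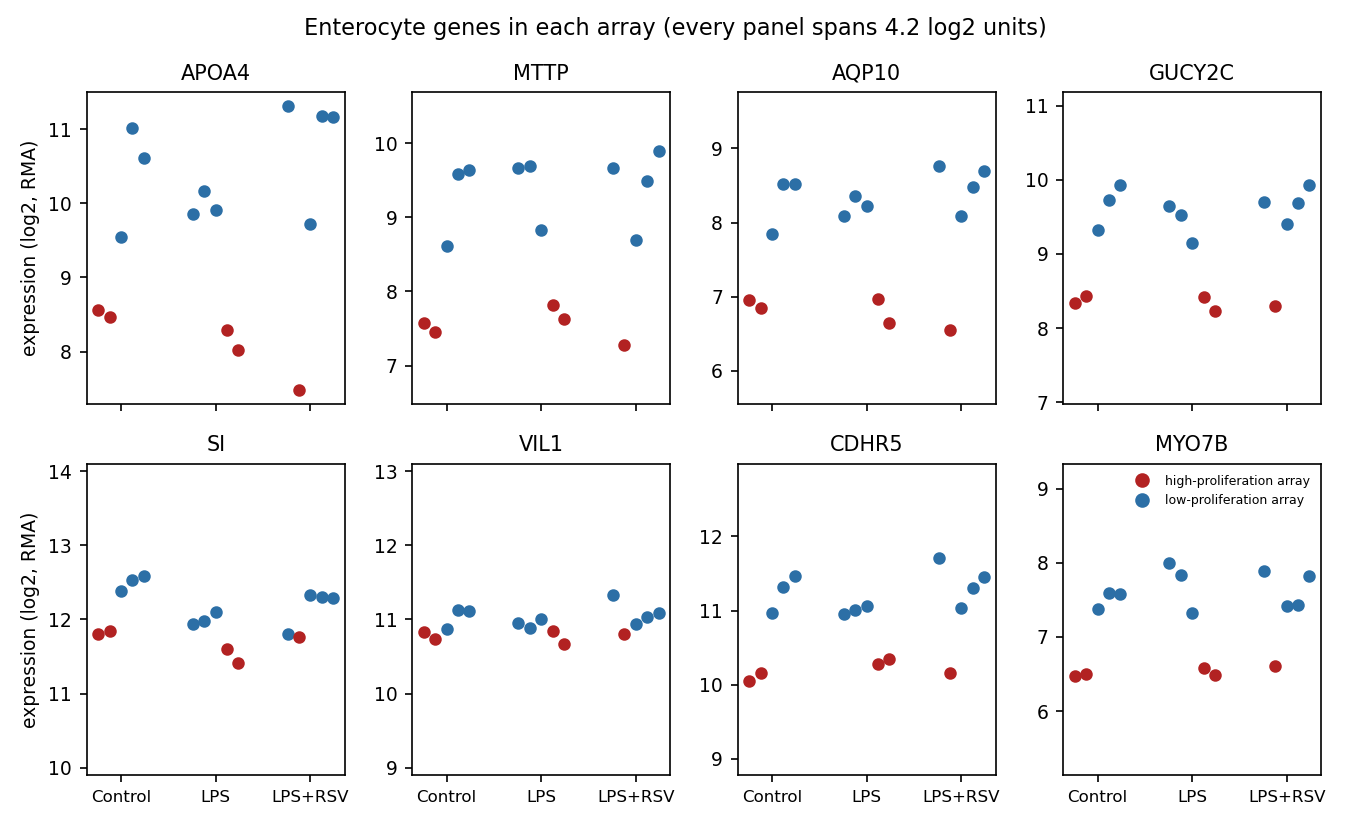
Expression (vertical axis, log2 from RMA, panels of equal span) of 8 enterocyte genes in each array by treatment group (horizontal axis), 1 point per array, red for the high and blue for the low class. APOA4, MTTP, AQP10, GUCY2C, CDHR5 and MYO7B had no overlap between classes, the levels of VIL1 differed by 0.24, and SI overlapped between treatments.

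The brush border showed unequal differences among its parts. CDHR5, a protocadherin that links the tips of microvilli, was -0.99 ± 0.13, with high arrays between 10.05 and 10.35 and low arrays between 10.95 and 11.71. MYO7B, a myosin that carries this linking complex, was -1.09 ± 0.12, with high arrays between 6.47 and 6.61 and low arrays between 7.33 and 7.997. CDHR2, the partner of CDHR5, was -0.68 ± 0.14. MYO1A, the motor that ties the actin core to the membrane, was -0.72 ± 0.12, while villin itself was -0.24 ± 0.07, with high arrays from 10.67 to 10.85 and low arrays from 10.87 to 11.33. The keratin KRT20 (-0.76 ± 0.27) and EPS8L2 (-0.59), an actin regulator, were the other counted members. Without LPS 1 and 2, in which KRT20 was high, its difference was -0.42 and under the limit. Of 25 tested brush border genes, 6 were counted lower, 0 higher, and 21 had a difference below 0, with a median of -0.16. The counted members held 3 of the tip-link complex (CDHR5, CDHR2 and MYO7B), a grouping chosen after the values were seen.

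Transporters and channels of the absorptive cell were lower too. AQP10, an aquaglyceroporin of the small intestine, read 6.96 and 6.85 in high Control arrays against 7.84, 8.52 and 8.51. In LPS it read 6.97 and 6.65 against 8.09, 8.35 and 8.22, and in LPS+RSV 6.56 against 8.76, 8.09, 8.47 and 8.70. The high arrays of AQP10 all lay under 7, the low arrays all above, and the difference was -1.54 ± 0.16, or 2.90-fold. S100G, the calcium-binding protein calbindin-D9k of calcium absorption, was -1.73 ± 0.32. SLC51A, a subunit of the basolateral bile acid exporter, was -0.66, and HEPH, the ferroxidase of iron export, was -0.50. These were the 4 counted of 10 tested members, of which 9 were below 0; 58 genes were listed, so that most transporters of the list were not analysed here.

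The receptor cubilin, CUBN, which takes up vitamin B12 with intrinsic factor, was -1.38 ± 0.30. GUCY2C, the guanylate cyclase receptor for guanylin and uroguanylin, was -1.24 ± 0.12, with high arrays between 8.23 and 8.43 and low arrays between 9.15 and 9.93. GPA33, a surface antigen of intestinal epithelium, was -1.40 ± 0.22. HHLA2, a B7 family protein that regulates T cells, was -1.19 ± 0.08, with high arrays between 9.16 and 9.39 and low arrays between 10.30 and 10.73. HHLA2 thus had a gap of 0.91 between the classes over all arrays, second to APOA4 at 0.98. Among the 20 genes of widest gap, 4 were cell cycle list genes and 16 were not; AQP10 (0.87), MTTP (0.80), C18orf54 (0.78) and C3 (0.78) came next. A gap of any size was found for 581 higher and 359 lower genes of the 11804 tested.

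Digestive hydrolases held 3 counted lower genes, among them SI. It read 11.80 and 11.84 in high Control arrays against 12.39, 12.53 and 12.59, and 11.60 and 11.41 in high LPS arrays against 11.94, 11.98 and 12.09. In LPS+RSV it read 11.77 against 11.81, 12.33, 12.30 and 12.28. The LPS+RSV 1 value lay next to the high array, and the difference was -0.54 ± 0.09. The ectophosphodiesterase ENPP3 (-0.72) and the lipase CEL (-0.66) were also counted. The peptidase ANPEP was -0.72 ± 0.26 but its classes overlapped in Control, and DPP4, another brush border peptidase, was -0.41 ± 0.08 and below the size limit. NAALAD2, a peptidase of the glutamate carboxypeptidase family, went the other way at 0.86 ± 0.19. TM4SF20, a membrane protein of this list that is not itself a hydrolase, was -2.02 in Control and -1.56 in LPS+RSV but -0.18 in LPS, and was not counted. Of the 14 tested members 3 were counted lower and 1 higher, and 12 were below 0, with a median of -0.41.

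Over these 4 enterocyte lists together, 19 of 77 tested genes were counted lower (24.7%, beside 1.14% of all genes) and 1 was counted higher. A difference below 0 was found for 67 of the 77 (87%), beside 52.7% of all genes. Without LPS+RSV 1 the lower counts were 6 for brush border, 3 for hydrolases, 3 for transporters and 5 for lipid absorption. The lists were written with earlier results of these arrays known, and these shares describe the arrays without a test.

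**Figure D3:**
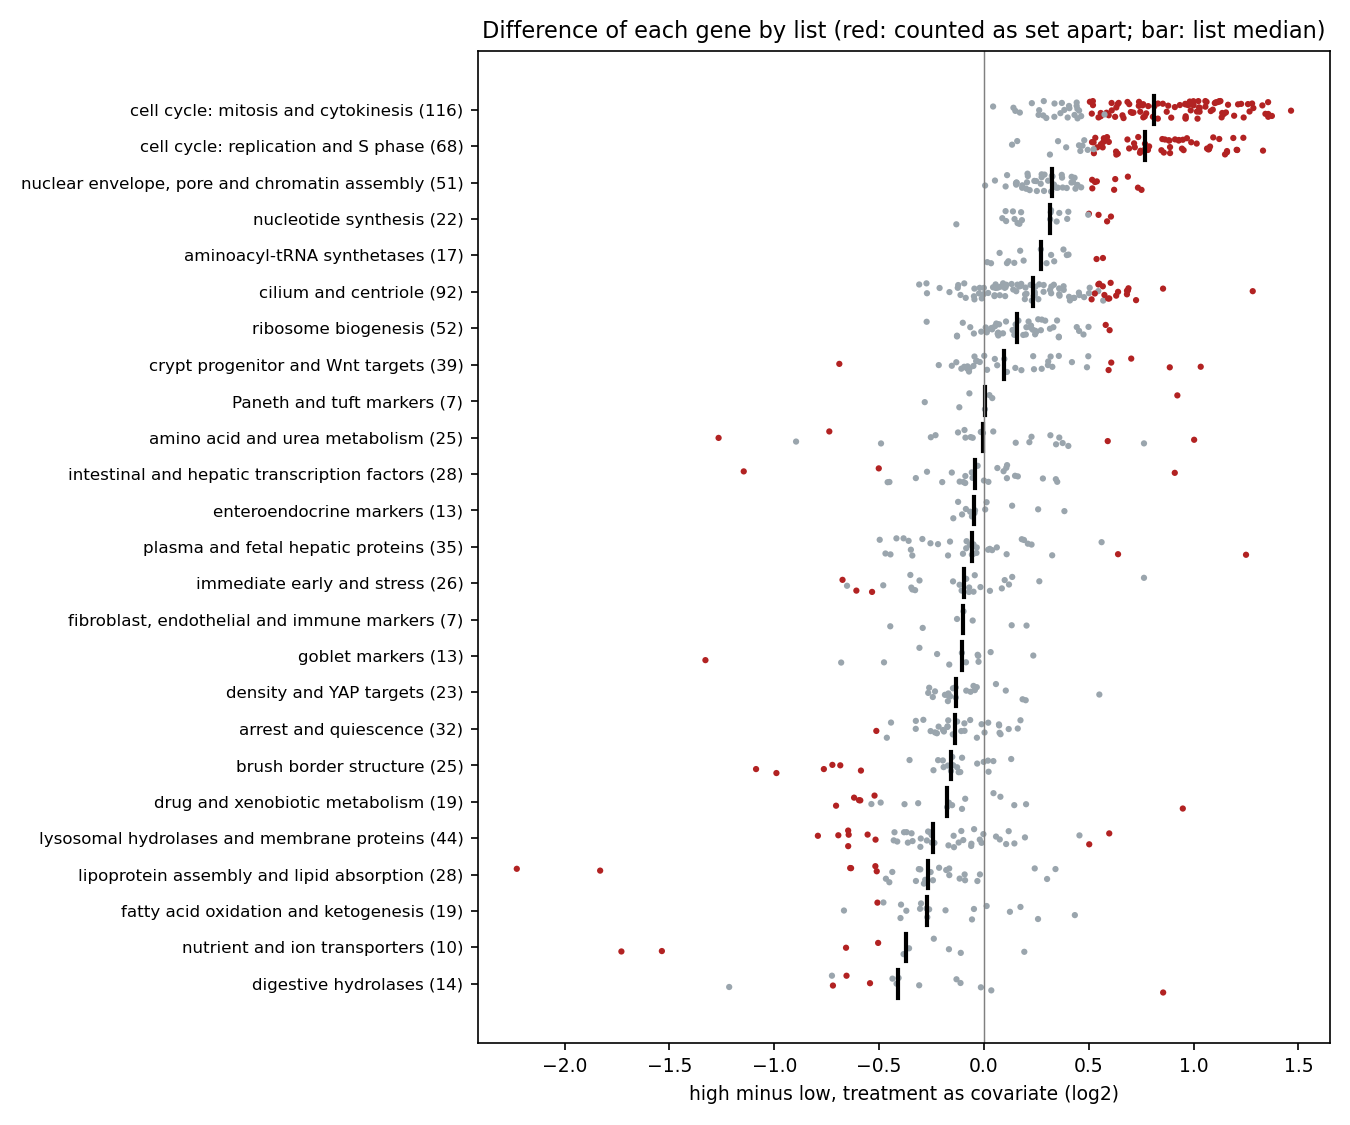
High minus low difference of each tested gene (horizontal axis, log2) by gene list (vertical axis, with the number of genes tested), red where counted and grey otherwise, with a black bar at each list's median. The 4 enterocyte lists had medians from -0.41 to -0.16, and lists of nucleotide synthesis and of nuclear envelope and chromatin 0.32 each.

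Transcription factors differed in both directions. MAF, a basic leucine zipper factor, was -1.15 ± 0.15, with high arrays between 6.60 and 7.16 and low arrays between 7.53 and 8.64. EHF, an ETS family factor of epithelia, was 0.91 ± 0.15, with high arrays between 8.37 and 8.57 and low arrays between 6.94 and 8.02. PPARG, the nuclear receptor of lipid storage, was -0.50 ± 0.20, and most of its difference lay in LPS (-0.997), beside -0.15 for Control and -0.29 for LPS+RSV. Without LPS 1 and 2 it was -0.21 and under the limit. The caudal factor CDX2, which specifies intestine, was -0.09 ± 0.07, and its levels ranged from 8.70 to 8.85 in high and from 8.70 to 9.20 in low arrays. CDX1 (-0.10 ± 0.12), GATA6 (0.02 ± 0.03), FOXA2 (0.15 ± 0.07) and KLF4 (-0.09 ± 0.09), all factors of the intestinal epithelium, were likewise not set apart. Of 60 listed factors 28 were tested. Of the 28, 1 was counted higher (3.57%, beside 2.84% of all genes) and 2 lower (7.14%, beside 1.14%), with a median of -0.04.

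Amino acid and urea metabolism had 2 of 25 tested genes counted lower, 2 counted higher and 13 below 0, with a median of -0.00. Each count was 8% of the list, beside 1.14% of all genes counted lower and 2.84% higher. The lower ones were GATM (-1.27 ± 0.22), which makes the creatine precursor guanidinoacetate, and TAT (-0.74), the tyrosine aminotransferase. The higher ones, both of serine synthesis, were the aminotransferase PSAT1 (1.00 ± 0.20) and the first enzyme PHGDH (0.59 ± 0.08). Of 78 listed genes of drug and xenobiotic metabolism only 19 were tested, so most were not analysed here. Among the 19, 5 were counted lower (26.3%, beside 1.14% of all genes). They included the amine oxidase MAOB (-0.70 ± 0.08), the monooxygenase FMO5 (-0.60 ± 0.15, but -0.40 without LPS 1 and 2), the lactonase PON3 (-0.59 ± 0.11), and the glutathione transferases GSTA2 (-0.62 ± 0.07) and GSTA1 (-0.52), near-identical copies whose probes may be shared and whose values are uncertain for that reason. ADH6, an alcohol dehydrogenase, was the member counted higher (0.95 ± 0.27). Fatty acid oxidation, with 44 genes listed and 19 tested, had 14 of the 19 below 0 and a median of -0.27. In that list 1 was counted, the peroxisomal thiolase ACAA1 (-0.51), while CPT1A, the mitochondrial carnitine palmitoyltransferase, was -0.48 and under the limit.

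Lysosomal genes, a list added after values were seen, were lower in 35 of 44 tested (79.5%, beside 52.7% of all genes). Of the 44, 7 were counted lower (15.9%, beside 1.14%) and 2 higher (4.55%, beside 2.84%), with a median of -0.24. CTSD, the aspartic protease cathepsin D, was -0.69 ± 0.08, with high arrays between 10.87 and 11.02 and low arrays between 11.48 and 12.01. NAAA, an acid amidase, was -0.79 ± 0.11, and CTSA (-0.65), CTSO (-0.65), ENGASE (-0.64), TPP1 (-0.55) and HEXA (-0.52) completed the counted lower members. CTSV (0.50) and TMEM106B (0.60) were higher. CD68, a lysosomal membrane protein also used as a macrophage marker, was -0.45 ± 0.09.

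Among genes higher in the high arrays and outside the cell cycle lists, the crypt and progenitor list held 5, or 12.8% of its tested members beside 2.84% of all genes. LGR5, the R-spondin receptor of crypt stem cells, read 6.90 and 7.09 in high Control arrays against 5.91, 5.70 and 5.51. In LPS it read 6.40 and 6.77 against 6.03, 5.60 and 6.04, and in LPS+RSV 6.71 against 5.58, 5.87, 5.76 and 4.98. The classes did not overlap, and the difference was 1.03 ± 0.17, or 2.05-fold. DKK1, a secreted Wnt inhibitor that Wnt signalling induces, was 0.89 ± 0.14, whereas its relative DKK4 was -0.69 ± 0.13. HMGA1, a chromatin protein of progenitors, was 0.70 ± 0.11, although the mean of its probe sets gave 0.49. The fetal let-7 blocker LIN28B was 0.61 ± 0.11 and the cyclin-dependent kinase CDK6 was 0.59 ± 0.13. SOX9, a crypt transcription factor, was 0.50 ± 0.08 and fell short of the limit before rounding. The stem cell factor ASCL2, a Wnt target, was -0.13. Of 39 tested members 5 were counted higher and 1 lower, 24 were above 0, and the median was 0.10, or 0.05 without LPS 2. SOX2, a pluripotency factor named after its value was seen, was 0.60 ± 0.09.

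C3, the central complement component, read 10.00 and 10.05 in high Control arrays against 8.84, 8.76 and 8.55. In LPS it read 10.19 and 10.25 against 8.94, 8.89 and 9.20, and in LPS+RSV 10.16 against 9.23, 8.85, 8.89 and 8.80. The high arrays of C3 lay from 10.00 to 10.25 and the low arrays from 8.55 to 9.23, with a difference of 1.25 ± 0.08, or 2.38-fold, and within-treatment differences of 1.31, 1.21 and 1.22. C5, a later component of the cascade, was 0.64 ± 0.12, but C6, a component of the membrane attack complex, was -1.37 ± 0.29. Of 35 tested plasma and fetal hepatic proteins C3 and C5 were the counted ones (5.71%, beside 2.84% of all genes), and the median was -0.06. CCL20, a chemokine for CCR6-bearing lymphocytes, was 0.99 ± 0.16, and KITLG, the ligand of the receptor KIT, was 1.01 ± 0.21. LYZ, lysozyme, which Paneth cells secrete, was 0.92 ± 0.21, with DEFA5 and DEFA6, the defining Paneth defensins, not analysed here. The mean of the LYZ probe sets gave 0.62, and the difference in LPS alone was 0.47. Of 7 tested Paneth and tuft markers 1 was counted, LYZ (14.3%, beside 2.84% of all genes counted higher). In that list 3 were below 0, and the median was 0.005. The semaphorin receptors NRP1 (0.66 ± 0.08) and NRP2 (0.67 ± 0.16) and the zinc finger factor MECOM (0.79 ± 0.18) were also higher and were named after their values were seen.

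**Figure D4:**
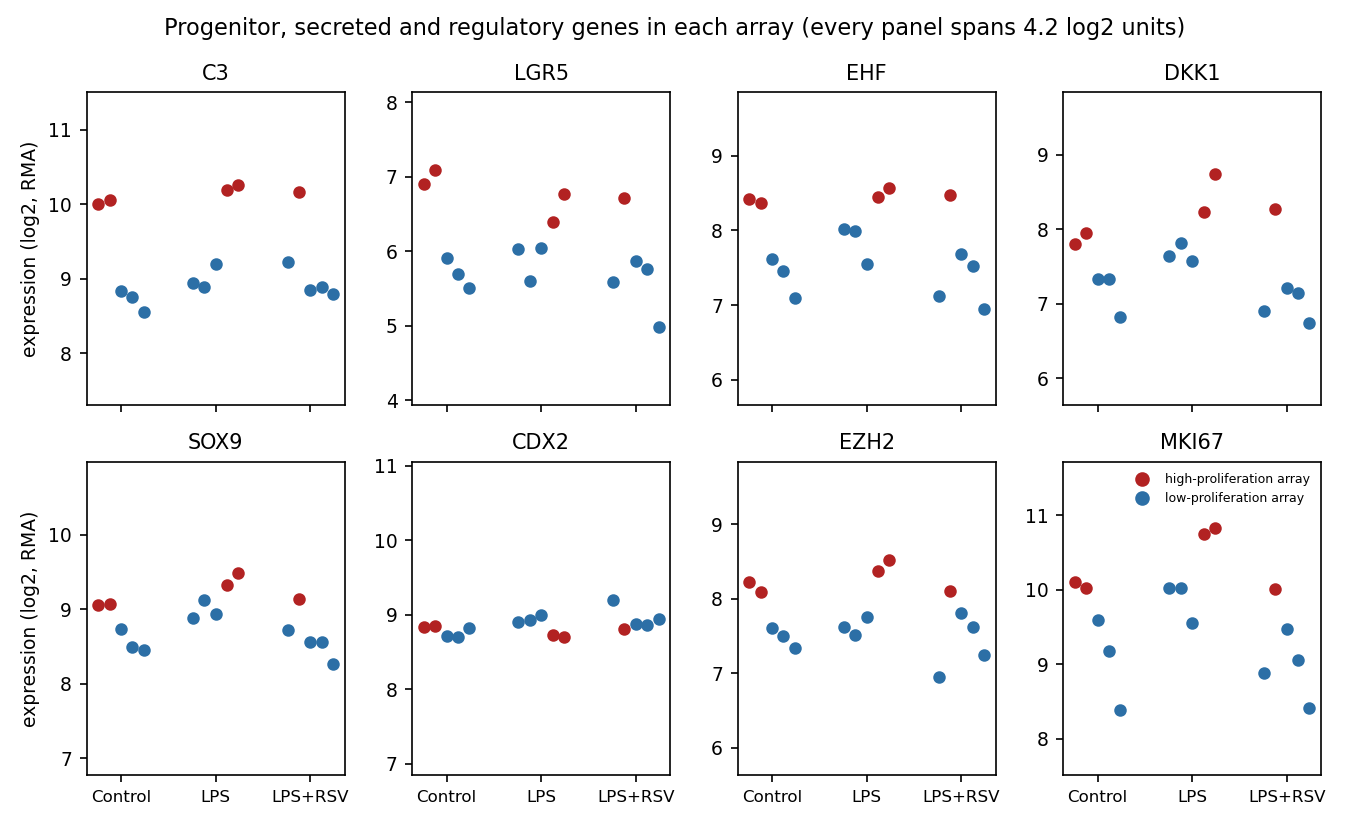
Expression (vertical axis, log2 from RMA, panels of equal span) of 8 genes in each array by treatment group (horizontal axis), 1 point per array, red for the high and blue for the low class. C3, LGR5, EHF and EZH2 had no overlap between classes, DKK1 and SOX9 overlapped between treatments, CDX2 overlapped within them, and MKI67 is shown as a gene of the lists that drew the classes.

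In nucleotide synthesis, 21 of 22 tested genes were above 0, beside 47.3% of all genes. Of the 22, 4 were counted (18.2%, beside 2.84% of all genes), and the median was 0.32. IMPDH2, the committed enzyme of guanine nucleotide synthesis, was 0.59 ± 0.06, with high arrays between 9.65 and 9.73 and low arrays between 8.88 and 9.31. PPAT, which starts purine synthesis, was 0.61 ± 0.11, and GMPS (0.50) and DTYMK (0.55) were the other counted members. All 17 aminoacyl-tRNA synthetases tested, a list added after values were seen, were above 0, with 2 counted (11.8%), IARS1 at 0.57 and GARS1 at 0.54. Ribosome biogenesis was above 0 in 45 of 52 but differed little, with a median of 0.16 and 2 counted (3.85%), LYAR (0.58) and NOP58 (0.60). Without LPS+RSV 1, in which NOP58 read lowest at 8.27, 2 members were counted.

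Genes of the nuclear envelope, pore and chromatin were above 0 in 51 of 51 tested, beside 47.3% of all genes. The median was 0.32, and 9 were counted (17.6%, beside 2.84% of all genes). The methyltransferases EZH2 (0.74 ± 0.12), of the Polycomb mark on H3, SUV39H2 (0.75 ± 0.11), of the heterochromatin mark on H3, DNMT1 (0.69 ± 0.09), which maintains DNA methylation, and DNMT3B (0.63 ± 0.10), which adds it anew, were among them. EZH2 ranged from 8.09 to 8.52 in high and from 6.95 to 7.81 in low arrays. Some of these genes serve S phase directly, and the list cannot be separated from the cell cycle by its name.

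Cilium and centriole genes, a list added after values were seen, had 18 of 92 counted higher (19.6%, beside 2.84% of all genes) and 0 lower. Of the 92, 74 were above 0, beside 47.3% of all genes, and the median was 0.23. Like the list above, this list cannot be separated from the cell cycle by its name. MNS1, a protein of motile cilia and flagella, was 1.28 ± 0.20, with high arrays between 6.97 and 7.31 and low arrays between 4.95 and 6.23. DCDC2, a doublecortin family protein of the cilium, was 0.85 ± 0.19, and IFT80, an intraflagellar transport subunit, was 0.69. LPS+RSV 1 had the lowest score of this list, -0.48. Without it the median was 0.21 and 16 genes were counted, and the difference of IFT80 was at least 0.56 with any array left out.

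Some of the highest genes outside the lists are known to act in cell division or repair and were missed by the lists, among them MND1 (1.08), a recombination protein, GEN1 (0.98), a Holliday junction nuclease, and WDR76 (0.99). C18orf54 (1.39 ± 0.19) led the higher genes outside the lists, with high arrays between 6.70 and 7.37 and low arrays between 4.65 and 5.91. The 188 are therefore not all free of the cycle. Conversely, members of the lists did not move alike: CENPK, a kinetochore subunit, was 1.47, TOP2A 1.33 ± 0.23 and MKI67 0.99 ± 0.20, but MCM2, a helicase subunit, was 0.54 and CCND1, cyclin D1, was 0.13.

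Lists of other cell types and states are given beside the 1.14% of all genes counted lower and the 52.7% below 0. Goblet markers had 11 of 13 below 0 (84.6%), a share near the 87% of the 4 enterocyte lists. Of the 13, 1 was counted lower (7.69%), ZG16 (-1.33 ± 0.20), a secreted lectin, while TFF3, the trefoil peptide of goblet cells, was 0.03 ± 0.09. Enteroendocrine markers had 0 of 13 counted and fibroblast, endothelial and immune markers 0 of 7, with the fibroblast proteoglycan DCN at 3.30, below the filter. Arrest and quiescence genes had 1 of 32 counted lower, the arrestin ARRDC4 (-0.51), and 23 below 0 with a median of -0.14. YAP and density genes had 0 of 23 counted and a median of -0.13, or -0.08 without Control 1. Immediate early and stress genes had 3 of 26 counted lower (11.5%), JUN (-0.67), EGR1 (-0.61) and DUSP1 (-0.53). The mean of the EGR1 probe sets gave -0.39, under the limit.

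Scores of the enterocyte lists were then compared array by array. The transporter score was -0.38 and -0.36 in high Control arrays, -0.22 and -0.37 in high LPS arrays and -0.53 in LPS+RSV 2, and ranged from -0.02 to 0.51 in low arrays. The brush border score was at or below -0.13 in the high arrays and at or above -0.02 in the low ones. The lipid absorption score did not part the classes completely, since Control 3 stood at -0.14 beside -0.14 in LPS 4. The median within-treatment difference of the 134 lower genes was -0.63 for Control, -0.58 for LPS and -0.78 for LPS+RSV, and that of the 188 other higher genes 0.65, 0.58 and 0.72. The LPS+RSV values rest on 1 high array, and the count for that group alone is open to that array's own errors.

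**Figure D5:**
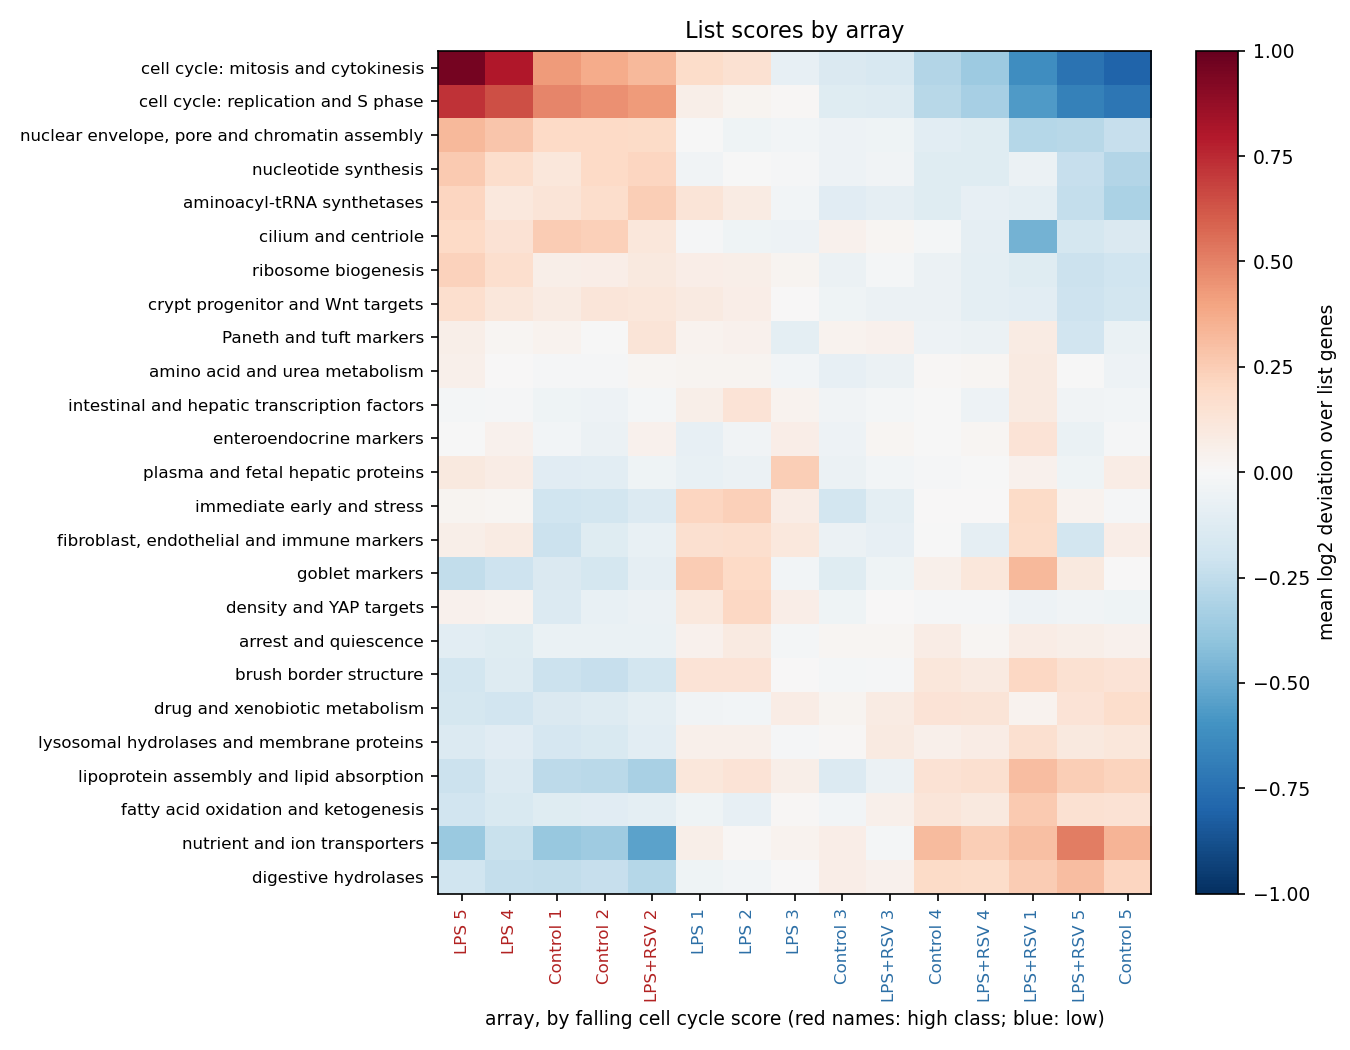
Mean log2 deviation of each list's genes (colour, blue below and red above the mean over arrays) by list (vertical axis) and array (horizontal axis, by falling cell cycle score, red names for the high class). The transporter list ranged from -0.53 in LPS+RSV 2 to 0.51 in LPS+RSV 5, and the cilium and centriole list fell to -0.48 in LPS+RSV 1.

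The treatments were then compared among arrays of like class, with class as a covariate (limma, Benjamini-Hochberg over 11804 genes, adjusted p under 0.05). With LPS against Control, 47 genes rose (0.398%) and 8 fell (0.0678%); with LPS+RSV against LPS, 71 rose (0.601%) and 151 fell (1.28%). These comparisons share the LPS arrays. With LPS+RSV against Control the count was 0 by limma, with 1198 genes at an unadjusted p under 0.05. The class was drawn from the same values and can take up spread, so these p-values may be too small. Without it limma called 3 higher genes (0.0254%) and 0 lower for LPS against Control, 1 higher (0.00847%) and 4 lower (0.0339%) for LPS+RSV against LPS, and 0 for LPS+RSV against Control. The counts also hung on single arrays: leaving out 1 array moved the first by over 1.5 times for 13 of the 15 arrays and the second for 12. Without LPS 1 they were 1 and 22, without LPS 2 they were 2 and 1, and without LPS+RSV 2 they were 30 and 3.

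Of the 77 enterocyte genes tested in the 4 lists, LPS against Control called 0, and 2 fell when LPS+RSV was set against LPS (2.6%, beside 1.28% of all genes), KRT20 and DPP4. KRT20 read 7.62, 7.96, 6.34, 6.27 and 5.79 in LPS 1 to 5 and 6.44, 5.33, 5.67, 5.63 and 5.80 in LPS+RSV 1 to 5. LPS 1 and 2 were high, the groups overlapped, and the difference was -1.17 ± 0.27 (SE, limma adjusted p = 0.0396), against an adjusted p = 0.166 in limma without the class term. DPP4 differed by -0.36 ± 0.09 (limma adjusted p = 0.0499, and 0.309 without class). APOA4 differed by -0.40 ± 0.34 in LPS against Control (adjusted p = 0.725, limma) and by 0.48 ± 0.34 in LPS+RSV against LPS (adjusted p = 0.466, limma). MTTP differed by 0.15 ± 0.24 and -0.08 ± 0.24, with limma adjusted p = 0.863 and 0.884, and C3 by 0.25 ± 0.09 and -0.06 ± 0.09, with limma adjusted p = 0.233 and 0.774. LGR5 differed by -0.05 ± 0.17 and -0.18 ± 0.17, with limma adjusted p = 0.945 and 0.592.

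Cell cycle list genes made up 18 of the 55 calls of the LPS comparison and 44 of the 222 calls of LPS+RSV against LPS, although class was in the model. The 18 all rose, 1 of 68 tested replication genes and 17 of 116 mitosis genes, beside 0.398% of all genes. The 44 all fell, 7 of the 68 (10.3%) and 37 of the 116 (31.9%), beside 1.28% of all genes. These genes drew the classes, so their calls are given as counts and shares and support nothing. The classes were not of equal score in the groups: the high arrays scored 0.74 and 0.87 in LPS, and 0.41 and 0.45 in Control, so that the class term does not level the cell cycle between treatments. With the score itself in place of class, 104 and 17 genes were called by limma, of which 21 and 12 were shared with the calls above. Of 39 tested crypt list genes, 1 rose in LPS against Control, beside 0.398% of all genes. In LPS+RSV against LPS 4 of the 39 fell (10.3%, beside 1.28% of all genes). They included SOX9, at -0.40 ± 0.09 (adjusted p = 0.0386, limma), and DKK1, at -0.56 ± 0.14 (adjusted p = 0.0499, limma). Without the class term neither SOX9 nor DKK1 was called (limma adjusted p = 0.165 and 0.194).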

How the data were processed

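Expression was measured on 15 Affymetrix whole-transcript arrays from 300 ng of RNA each. The deposited values are log2 expression per probe set, made by the authors with RMA per the submitters' processing notes; version and genome build are not given in the sources used here. Of 53617 rows, 16098 carried 1 gene symbol of the platform annotation, 0 several, and 37519 were left unnamed; 0 columns belonged to other samples. Each of 14884 symbols was represented by its brightest probe set, and 11804 genes above the 40th percentile in at least 5 arrays were kept. RMA makes array distributions alike, so differences are relative to the array.

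Class differences came from lmFit (limma 3.58.1, R 4.3.3) with group and class; treatment contrasts from the same fit with eBayes, not trended or robust. Figures used Python with matplotlib. The scripts were tested on simulated data and recovered the differences put in. The members, classes and gene lists were chosen with earlier results of these data known, and 3 lists and some named genes after values were seen. Genes selected for naming were the 15 of largest difference per direction outside the cell cycle lists, and up to 4 counted per list. Fixed cell cycle and enterocyte markers, and list genes called between treatments, up to 10, were added. Not all genes selected are described above. Left out on the lower side were, among others, SUSD2 (-1.40), C17orf78 (-1.32), GLYAT (-1.23), KLK7 (-1.21) and AGMO (-1.20). On the higher side they included NETO2 (1.18), CCDC141 (1.16), LOC100288637 (1.11), RTKN2 (1.05) and GXYLT2 (1.00). The fixed markers CCNB1 (1.10) and PCNA (0.88) were also left out. Alternatives covered the filter, probe sets, normalization, moderation, size limit, class covariate, each treatment alone, the replicate block and each array left out. The number of arrays limits the precision. Promoters came from RefSeq (GRCh38.p14) and were matched by gene ID, and the build of the array annotation did not enter.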

Additional observations from a re-analysis of the deposited data

Results flagged for a closer look

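List scores were examined in 78 groups of 5 arrays for an array far from the others, and chance flags about 1 in 20 groups. In LPS the Paneth and tuft marker score of LPS 3 was -0.101, against 0.0210 to 0.0598 in the other 4 arrays. In LPS+RSV the score of intestinal and hepatic transcription factors was 0.0868 in LPS+RSV 1, against -0.0478 to -0.0177 in the others. Among 20642 probe sets unnamed here that passed the same filter, outside the genes compared above, 281 were set apart and higher (1.36%) and 189 set apart and lower (0.916%) at a difference of at least 0.5.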

How the results depend on the processing

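The counts of higher and lower genes between classes were 300 to 385 and 118 to 167 with each array left out, without Control 5 at the lowest of both. They were 65 and 20 at a size of at least 1, 1074 and 635 with no size limit, 236 lower in Control alone, and 560 and 334 in LPS+RSV alone, where 1 array is high. Centring arrays gave 302 and 161. The treatment counts were unstable: with each array left out, LPS against Control gave 1 to 174 calls, LPS+RSV against LPS 1 to 533, and LPS+RSV against Control 0 to 0. For the first 2 of these, in that order, the counts were 36 and 111 with no filter, 3 and 5 without class, 104 and 17 with the cell cycle score as covariate, 3 and 1 omitting LPS 1 and LPS 2, and 18 and 1 omitting LPS+RSV 1 as well, a choice made after seeing the data. LPS against Control gave 114 calls with the 60th percentile filter and 115 with trended robust moderation. Repeated quantile normalization split the LPS+RSV against LPS calls into 104 higher and 129 lower, beside 71 and 151. The cause of these shifts was not tested. With the replicate number as a block the counts were 381 higher and 172 lower genes between classes and 165, 331 and 0 calls. Same-numbered arrays correlated from -0.541 (LPS 5 and Control 5, of unlike class) to 0.707 (LPS+RSV 2 and Control 2, both high), over 0.1 in 4 of 15 pairs. Class was not removed from these correlations and differs within most numbers. They therefore cannot tell whether same-numbered arrays shared a culture. Of single genes and list medians, 100 and 23 values moved by more than the residual SD, and 3799 and 602 did not. That SD came from the gene's fit, or from a fit of the list score. Of the genes selected for naming that were counted, 0 changed sign. The counting rule fixes this within each treatment and with an array left out, so it lends no support. Opposite signs were found in 20 values of 10 genes that were not counted and 26 of 5 list medians near 0. Those beyond the residual SD were TFF1 (0.14) and CDX2 (0.10) in Control alone, KRT18 (-0.03) in LPS alone and FGG (0.11) in LPS+RSV alone. For medians they were amino acid and urea metabolism with the 60th percentile filter (0.10), and this list (0.07), the transcription factors (0.0082) and fibroblast, endothelial and immune markers (0.01) in LPS+RSV alone.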
